A study of Mus musculus with 4 samples.

Results

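Dendritic epidermal T cells (DETC) were taken from single-cell RNA libraries of sorted CD45+ cells of mouse skin, with measured values as the criterion. A cell counted as a DETC when its barcode carried at least 1000 unique molecular identifiers (UMIs, each of which tags 1 captured RNA molecule), at most 15% of UMIs from mitochondrial genes, at least 8 UMIs of Trdc, at least 5 of Cd3e and Cd3g together and at least 1 of Nkg7. The same cell was allowed at most 1 UMI of the IL-17 lineage genes Cd163l1, Il23r, Blk and Il17a together, at most 1 of Csf1r, at most 5 of Cd207, and at most 2 of the cycling genes Top2a and Mki67 together. This gave 1082 DETC among 13124 cells that passed the UMI and mitochondrial limits. Of these, 1062 lay in the 2 control skins and 20 in the 2 skin tumors.

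The study set immune cells of skin tumors beside those of normal skin. All mice carried the C57/BL6 background. The 2 control skins came from mice that received no tumor cells, and the 2 skin tumors grew for 2 weeks under the flank skin of mice that were 8 to 10 weeks old when they received 2323 cells, a single line made from a tumor of a K14rtTA/tetOCre mouse model, where a keratin promoter drives the inducible system in the epithelium. The tissue was digested with collagenase, and live CD45+ cells were sorted, with no step given that separates epidermis from dermis, and loaded on droplets for 3' libraries. The age of the control mice is not given in the sources used here, and the labels do not tie the numbered replicates to animals. The p-values of the fits below measure only how differences between populations varied between the 2 control libraries. A shift common to all populations of a library is taken out first. Whether that spread is one between animals is not known. The deposited libraries hold 3499 and 3862 cells with 50932896 and 52784293 UMIs in control skins 1 and 2, and 5176 and 2258 cells with 73904272 and 34893543 UMIs in skin tumors 1 and 2. The 4 libraries share 23 cell barcodes, and no barcode was a DETC in more than 1 library.

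DETC are γδ T cells that leave the fetal thymus early, settle in the mouse epidermis and stay there for life. They sit between keratinocytes and Langerhans cells, and nearly all of them carry the same γδ T cell receptor, which is joined with almost no junctional diversity. They are known for sensing stressed or wounded keratinocytes through this receptor and through NK-type receptors such as NKG2D, and for making epidermal growth factors and cytotoxic molecules.

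The receptor segments identify the cells, so their germline sequences are shown first. The segment that this annotation names Trdv4 is the δ variable segment of DETC, and Tcrg-V5 is their γ variable segment. Tcrg-V6 is the γ segment of another fetal wave that homes to the dermis and uses the same δ segment. Each line gives the last 90 coding bases on the plus strand (GRCm38, GENCODE vM21 transcripts), and the capitals mark the codon of the conserved cysteine at which the junction with the next segment begins.
Trdv4, chr14:54075426-54075515: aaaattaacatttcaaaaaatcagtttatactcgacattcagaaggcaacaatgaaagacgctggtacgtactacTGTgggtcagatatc
Tcrg-V5, chr13:19192636-19192725: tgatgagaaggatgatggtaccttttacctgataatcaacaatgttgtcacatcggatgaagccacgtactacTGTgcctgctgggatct
Tcrg-V6, chr13:19190840-19190929: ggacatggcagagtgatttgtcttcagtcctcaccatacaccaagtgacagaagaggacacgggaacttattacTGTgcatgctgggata
The germline ends 12 bases after this codon in Trdv4, 14 in Tcrg-V5 and 13 in Tcrg-V6. Trdv4 lies at chr14:54074905-54075515 upstream of the constant gene Trdc at chr14:54142851-54148868, both on the plus strand, and Tcrg-C1 lies at chr13:19214103-19217024.

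The cells matched their label by receptor genes that the selection had not used. Trdv4 was found in 98.0% of DETC of control skin 1 and 97.6% of control skin 2, at 753 and 648 CPM (UMIs of the gene per 1000000 UMIs summed over the selected cells of a library). No other δ segment was found in 472 cells (96.3%) and 551 cells (96.3%) with Trdv4. Another δ segment without Trdv4 appeared in 1 cell and 3 cells, and none at all in 9 and 11. Tcrg-C1, a γ constant gene, was present in 96.7% and 97.0% of the cells, and Cd7, a surface glycoprotein of T and NK cells, in 99.4% and 99.1%. Most DETC therefore showed 1 δ variable segment, while the γ side was covered less well.

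Tcrg-V5 reached 27.6 and 18.4 CPM and was seen in 26.7% and 19.8% of DETC. Any γ variable segment was seen in 275 cells (56.1%) of control skin 1 and 276 cells (48.3%) of control skin 2. The segment with the most cells was Trgv2, seen in 156 cells (31.8%) and 167 cells (29.2%), and Tcrg-V1 was seen in 49 cells (10.0%) and 60 cells (10.5%). The annotated coding sequences of Trgv2 and Tcrg-V1 are 96.0% identical, so reads of these copies are uncertain. Tcrg-V6 was seen in 13 and 18 cells and Tcrg-V4 in 6 and 14. The γ constant genes share the same limit, since Tcrg-C1 is 97.4% identical to Tcrg-C2 and 96.8% to Tcrg-C3. RNA of the αβ receptor was present as well, with Trac in 29.8% and 27.8% of DETC at 73.0 and 45.5 CPM.

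**Figure D1:**
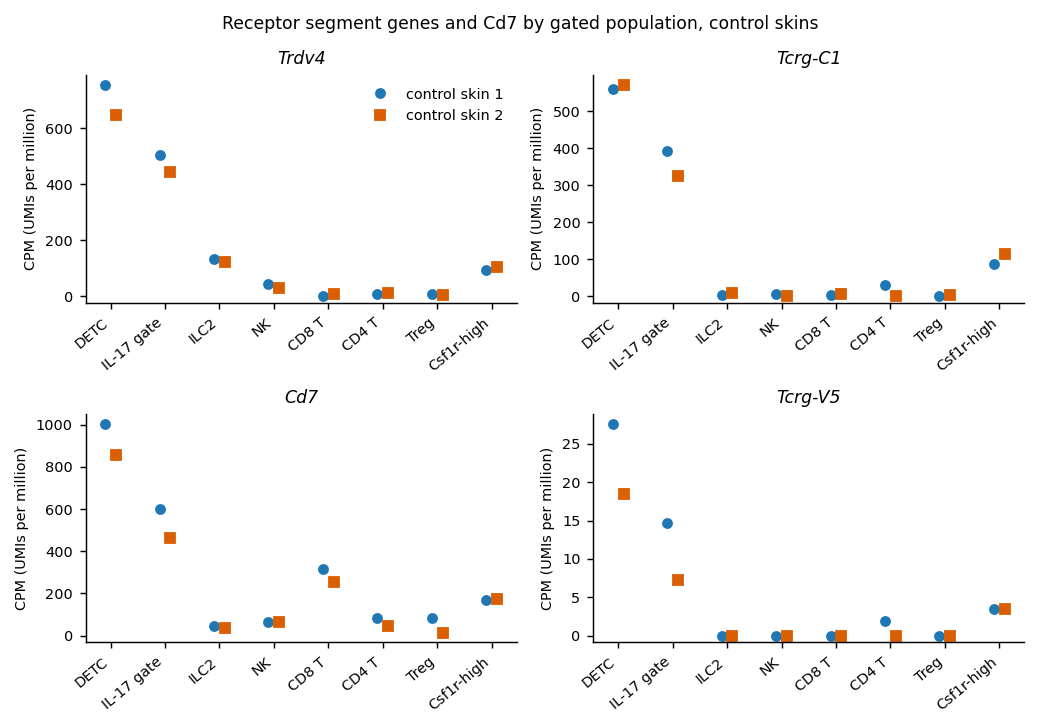
Levels of Trdv4, Tcrg-C1, Cd7 and Tcrg-V5 in CPM in DETC, 6 other lymphocyte populations and Csf1r-high cells of the control skins, with 1 point per library (circle, control skin 1; square, control skin 2). DETC hold the highest level of Trdv4, Tcrg-C1 and Cd7 in both libraries, and the IL-17 gate cells come next.

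Reads of these genes also appeared in cells that were selected by other genes. Trdv4 was present in 57.1% and 52.8% of group 2 innate lymphoid cells (ILC2) at 131 and 123 CPM, whereas Tcrg-C1 was found in 2.2% and 6.3% of them. Cells with at least 5 UMIs of Csf1r, a receptor of macrophages and Langerhans cells, here called Csf1r-high, had Trdv4 in 35.8% and 33.9% of cells at 95.2 and 105 CPM, with median depths of 28302 and 26342 UMIs per cell against 10853 and 10961 in DETC. When every cell was thinned to 1000 UMIs, Trdv4 was left in 51.8% and 47.0% of DETC, 11% and 9.9% of ILC2 and 5.6% and 7.9% of Csf1r-high cells. In CD4 T cells, Trdv4 was present in 7.5% and 12.5% of cells without thinning. At equal depth the share of cells with the segment in DETC thus lay far above that in ILC2 and Csf1r-high cells. How much of the reads in those cells came from free RNA or from the cells themselves was not tested.

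The edges of the selection were described by the same genes. Among cells that met every condition other than Trdc, Trdv4 was present in 5.47% and 1.92% of those with 0 Trdc UMIs, and 93.8% and 96.2% of those had Trac. In the bin of 6 to 7 Trdc UMIs, just outside the threshold, 92.9% and 78.6% of 14 and 14 cells had Trdv4. In the bin of 8 to 9, just inside, 91.3% and 90.3% of 23 and 31 cells had it. With at least 32 Trdc UMIs, all 150 and 154 cells had Trdv4, and Trac was present in 36.7% and 33.8% of them. The threshold therefore cut through a small bin in which most cells looked like those above it.

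**Figure D2:**
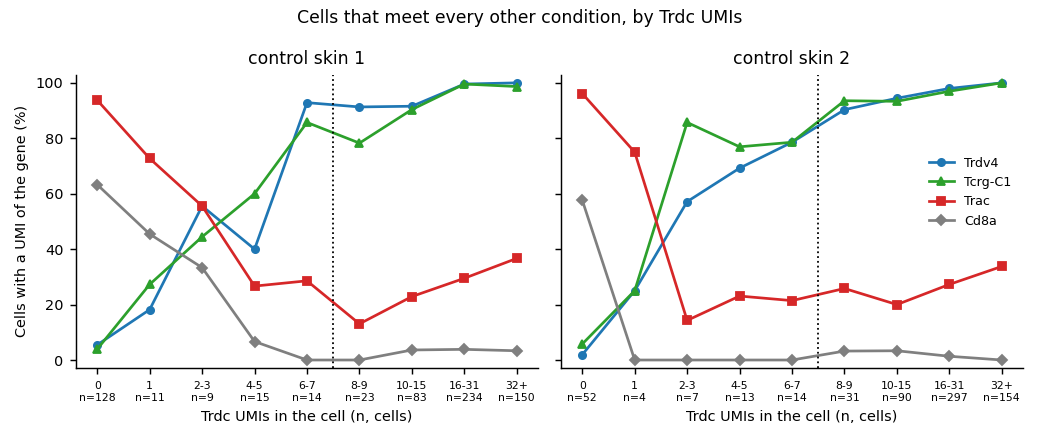
Percent of cells with a UMI of Trdv4, Tcrg-C1, Trac and Cd8a by bin of Trdc UMIs, among cells that met the other conditions, for control skin 1 (left) and control skin 2 (right), with a dotted line at the threshold of 8. Trdv4 and Tcrg-C1 rise below the threshold while Cd8a and Trac drop from the bin of 0 UMIs.

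Other conditions left out cells with Trdv4, which is also the δ segment of the Tcrg-V6 wave. The limit on Csf1r alone removed 46 and 95 cells, of which 100% and 98.9% had Trdv4, with a median of 34519 and 33418 UMIs. The limit on cycling genes alone removed 46 and 67 cells, of which 100% and 98.5% had Trdv4, with a median of 22286 and 20757 UMIs. The limit on the IL-17 lineage genes alone removed 70 and 47 cells, of which 97.1% and 91.5% had Trdv4. The Nkg7, Cd3 and Cd207 conditions alone removed at most 12 cells in a library each.

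DETC made up 490 of 3114 cells in control skin 1, or 15.7% (exact 95% interval 14.5 to 17.1%), and 572 of 3190 in control skin 2, or 17.9% (16.6 to 19.3%). In the skin tumors, 6 of 4813 cells, or 0.125% (0.0458 to 0.271%), and 14 of 2007, or 0.698% (0.382 to 1.17%), were selected. The means were 16.8% ± 1.55 in control skins and 0.411% ± 0.405 in tumors (SD, n = 2 each), and the groups did not overlap. An exact two-sided permutation test gave p = 0.333, the smallest that 2 libraries against 2 allow. That nearly all DETC lie in the control skins was known when the selection was set. The shares and the lack of overlap are therefore a description and not a test of the groups. Among the lymphocytes placed by any of the 7 lymphocyte selections, DETC were 490 of 999 (49.0%) and 572 of 912 (62.7%) in the control skins and 6 of 444 (1.35%) and 14 of 267 (5.24%) in the tumors. The 6 cells of skin tumor 1 mostly lacked Trdv4, as given at the end, and are counted here by the selection alone. The intervals cover counting error only, and a lower share in tumors cannot be told apart from a higher number of other cells.

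DETC were compared with 6 other lymphocyte populations of the control skins, each selected by its own genes and under the same limits on Csf1r, Cd207 and cycling genes. Regulatory T cells (Foxp3 with CD3 genes) numbered 43 and 37 in control skins 1 and 2, and CD8 and CD4 T cells (Trac and CD3 genes with Cd8a or Cd8b1, or with Cd4) 105 and 37 and 53 and 24. ILC2 (Gata3, Rora and Il7r with at most 1 CD3 UMI) numbered 182 and 142, and NK cells (Ncr1, Klrb1c or Eomes with at most 1 CD3 UMI and no Trac) 30 and 21. The remaining population, meant as dermal γδ T cells, needed Trdc, CD3 genes and at least 3 UMIs of the IL-17 lineage genes and held 96 and 79 cells. DETC were the largest and had 6424239 and 7274069 UMIs in all, with a median of 2878 and 2895 genes per cell. The comparators had between 6769 and 13901 UMIs per cell by their medians, so differences in low genes are less certain for the small populations.

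The IL-17 gate was mixed and in part went against its label of dermal γδ T cells. Trdv4, which dermal cells of the Tcrg-V6 wave also use, was present in 73 of its 96 cells in control skin 1 and 47 of 79 in control skin 2. Those cells had a median of 23 and 24 Trdc UMIs, Areg at 1168 and 1027 CPM, Olfm3 at 119 and 133 CPM and Il23r, a receptor subunit of IL-17 producing cells, at 193 and 211 CPM. The 23 and 32 cells without Trdv4 had a median of 5 and 7 Trdc UMIs, Areg at 124 and 318 CPM, Olfm3 at 6.55 and 0 CPM and Il23r at 809 and 929 CPM. The gate thus joined cells that looked like DETC with cells that did not, and it is called the IL-17 gate here. Of 146 list calls against the mean of 6 populations that could still be tested when gate cells with Trdv4 were left out, an alternative added after the data were seen, 133 were kept, and those of Ikzf2, Fasl, Fcgr3, Itga4, Il2, Cd160, Klf3, Cxcl2, Irf8, Gzmb, Ccl6, Ccl4 and Hsp90aa1 were lost.

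**Figure D3:**
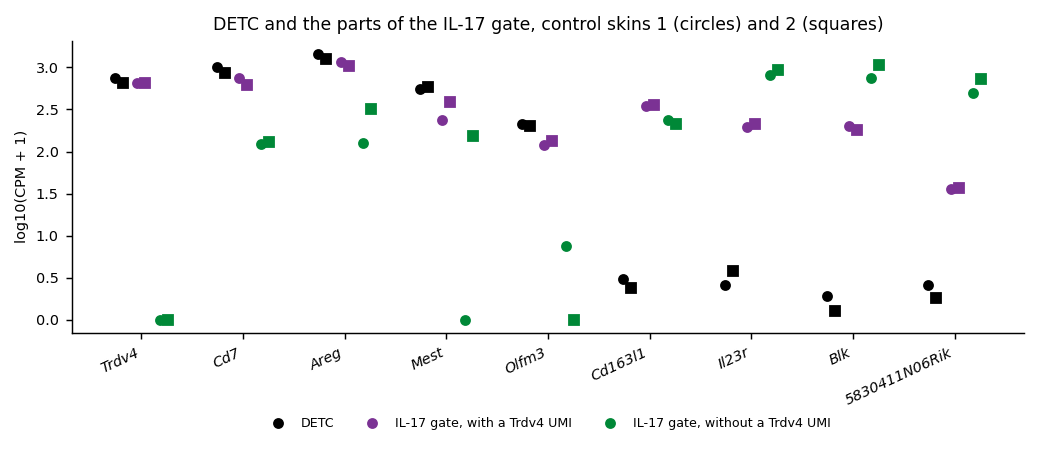
Levels of 9 genes, as log10 of CPM plus 1, in DETC and in IL-17 gate cells with and without a Trdv4 UMI, with 1 point per control skin. IL-17 gate cells with Trdv4 lie near DETC for Cd7, Areg and Mest, and those without it lie lower for Cd7 and higher for Il23r.

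A small group of DETC carried RNA of antigen-presenting cells. The 33 and 47 DETC (6.73% and 8.22%) with more than 2000 CPM of H2-Aa, H2-Ab1, H2-Eb1 and Cd74 held 87.7% and 90.1% of these MHC class II UMIs. They had a median of 22932 and 23752 UMIs, against 10710 and 10735 in the other DETC. Lyz2, a lysozyme of myeloid cells, was at 1285 and 1918 CPM in them against 25.8 and 72.8, and the mast cell protease Mcpt4 at 327 and 199 CPM against 11.6 and 14.3. Trdv4 was present in 100% of them in both libraries, at 297 and 309 CPM against 818 and 710 in the others. Doublet scores were ranked in each library and a number of top cells set beforehand, 0.8% per 1000 cells, was marked. This marked 78 of 3114 and 81 of 3190 cells, of which 17 and 21 were DETC. The overlap of those DETC with the MHC II-high cells is not given here. Whether the MHC II-high barcodes hold more than 1 cell was not tested, and their part in each result was measured by leaving such cells out of every population. Of 148 list calls against the mean of 6 that could then still be tested, 137 were kept, and those of Fcgr3, Itga4, Itgal, Ikzf2, Cxcl2, Ifng, Entpd1, H2-Aa, H2-Ab1, Cma1 and Mcpt4 were lost.

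Gene levels were summed over the cells of each population in each control skin and compared with edgeR's quasi-likelihood test, with the library as a block and Benjamini-Hochberg adjustment over 8727 genes. Against the mean of the 6 populations on the log2 scale, 1894 genes (21.7%) were higher in DETC and 1458 (16.7%) lower at an adjusted p under 0.05. Against CD8 T cells the counts were 1383 higher (15.8%) and 1195 lower (13.7%), and against NK cells 1319 higher (15.1%) and 1094 lower (12.5%). Against the IL-17 gate, 206 genes (2.36%) were higher and 472 (5.41%) lower, and this balance was not stable, with 1010 higher and 735 lower when gate cells with Trdv4 were left out. The median log2 fold change over all genes was -0.03, -0.05, -0.05 and 0.00 in these 4 comparisons. Since the 4 comparisons share the DETC sums, agreement among them is not independent evidence.

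The genes furthest above the other populations included a secreted protein, an ion transporter, collagens and imprinted genes. Olfm3, a secreted olfactomedin protein (chr3:114904078-115125722, plus strand), was at 213 and 199 CPM in DETC and was found in 50.6% and 46.9% of them. It had 0 UMIs in regulatory T, CD8 T and NK cells of both libraries, so that it was at least 51.0-fold, 104-fold and 45.3-fold higher in DETC, with a floor of 3 counts over both libraries. In CD4 T cells 6 UMIs made the ratio 25.5-fold. Only the IL-17 gate came close, at 92.1 and 91.0 CPM.

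Mest, a paternally expressed imprinted gene of the α/β hydrolase family (chr6:30723547-30748465), was at 548 and 589 CPM in DETC and present in 54.3% and 59.97% of them. CD8 T cells had 2.68 and 2.50 CPM, ILC2 3.61 and 3.90, and the IL-17 gate 179 and 312. The ratio over both libraries was 216-fold against CD8 T cells (4 UMIs), 152-fold against ILC2 (11 UMIs) and 2.37-fold against the IL-17 gate, and it was at least 141-fold against regulatory T cells, which had 0 UMIs. Nap1l5, another paternally expressed imprinted gene, was at 98.1 and 82.8 CPM and present in 37.8% and 36.9% of DETC. Both imprinted genes were thus found in fewer than 2 in 3 DETC at this depth.

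Slc4a4, a sodium bicarbonate cotransporter (chr5:88886818-89239653), was at 248 and 277 CPM in DETC and 137 and 147 CPM in the IL-17 gate. It had 0 UMIs in regulatory T cells, a difference of at least 65.1-fold. Col27a1, a fibrillar collagen (chr4:63214004-63334991), was at 261 and 293 CPM in DETC, in 78.6% and 85.5% of the cells, and at 101 and 126 CPM in the IL-17 gate. Against CD4 T cells, with 0 UMIs, it was at least 68.7-fold higher. A collagen chain that fibroblasts also make, Col12a1, was at 40.9 and 67.1 CPM in DETC. The fibroblast genes Col6a1 and Col6a2 were at 0 in control skin 2, and the 8 fibroblast markers summed to 21.5 and 19.7 CPM, led by Sparc at 13.7 and 14.3 CPM.

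The other genes that the rule named among the 12 furthest above were Bend7 (76.7 and 76.4 CPM in DETC), Samd13 (64.8 and 60.1), Gcsam (40 and 43.3), Otop1 (17.0 and 20.9), Klra5 (31.4 and 36.8) and Rimbp2 (38.8 and 34.9). Otop1 is a proton channel, Gcsam an adaptor of lymphocyte signaling, Rimbp2 a synaptic scaffold protein and Klra5 a Ly49 receptor of the NK gene complex. The fitted log2 fold changes of the 12 lay between 6.58 and 8.05, but between 1 and 5 of the 6 populations were at 0 in both libraries for each, and fitted values of such genes depend on the prior count. DESeq2 did not call Col12a1 and Otop1 (adjusted p = 0.284 and 0.13). Csf1r-high cells also held some of these reads, with Olfm3 at 45.3 and 37.2 CPM, Slc4a4 at 56.4 and 48.6, Col27a1 at 49.1 and 63.7 and Mest at 73.4 and 98.6, beside their Trdv4.

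**Figure D4:**
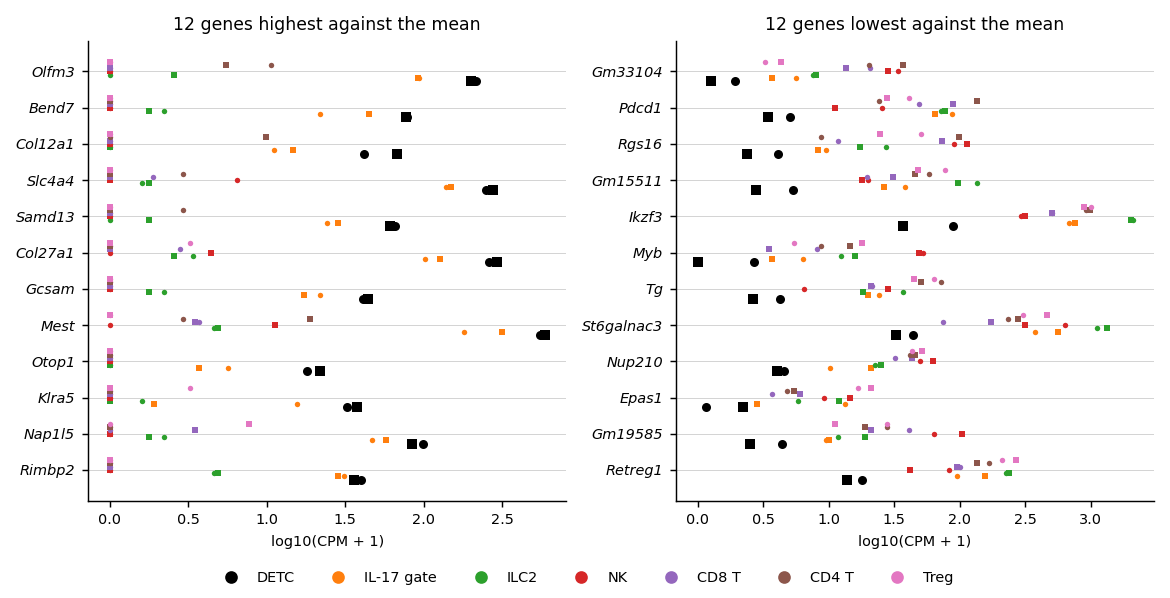
Levels, as log10 of CPM plus 1, of the 12 genes furthest above and the 12 furthest below the mean of the 6 other lymphocyte populations, with DETC in black, other populations in color, control skin 1 as circles and control skin 2 as squares. By the rule that named the genes, both DETC points lie beyond the 12 other points, and the nearest points above are mostly those of the IL-17 gate.

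The genes furthest below included a transcription factor and an inhibitory receptor of lymphocytes. Ikzf3, the Ikaros family transcription factor Aiolos (chr11:98464902-98546031, minus strand), was at 87.9 and 35.7 CPM in DETC and between 294 and 2089 CPM in the other 12 sums. Its log2 fold change was -3.60 ± 0.24 (SE, adjusted p = 4.79e-08, edgeR's quasi-likelihood test). Pdcd1, the inhibitory receptor PD-1 (chr1:94038305-94052553), was at 4.05 and 2.47 CPM against 10.2 to 134 CPM, a log2 fold change of -3.82 ± 0.46. Retreg1, a receptor for autophagy of the endoplasmic reticulum, was at 17.1 and 12.8 CPM against 41.0 to 266 CPM. Myb, a transcription factor of progenitors and memory T cells, was at 1.71 and 0 CPM, and Rgs16, a regulator of G protein signaling, at 3.11 and 1.37 CPM. The rest were Gm33104, Gm15511, Tg, St6galnac3, Nup210, Epas1 and Gm19585, with log2 fold changes between -3.82 and -3.14. By the rule that named the 12, both DETC values lie below every other sum.

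Of the 17 listed γδ receptor genes, 6 passed the filter on low counts, which they could do only through their level in γδ T cells, so no count of their calls is given. Of 20 genes of T cell receptor signaling, 8 were higher, 3 lower and 9 not called, with a median of 0.37, beside 21.7% and 16.7% of all genes higher and lower. The CD3ζ chain gene Cd247 was at 1082 and 1086 CPM against 47.6 to 933 CPM in the other sums, a log2 fold change of 2.16 ± 0.12 (adjusted p = 6.96e-09, edgeR). Fcer1g, an adaptor chain that can stand in for CD3ζ, was at 1383 and 1255 CPM, 2.68 ± 0.14 above the mean of 6 and 4.02 above CD8 T cells, where it was at 70.6 and 110 CPM. Against NK cells its difference of 0.48 was not called (adjusted p = 0.11, edgeR). Plcg1, a phospholipase that the receptor activates, was 1.90 ± 0.15 higher.

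The 3 lower genes of the receptor signaling list were the costimulatory receptor genes Cd28 and Cd27 and the early gene Nr4a1. Cd28 was at 117 and 51.1 CPM in DETC, 966 and 892 in CD8 T cells and 1257 and 1259 in CD4 T cells, and its log2 fold change against the mean of 6 was -1.94 ± 0.18. Cd27 was at 21.6 and 16.2 CPM and 2.04 lower on that scale. Nr4a1, which is induced after receptor stimulation, was at 126 and 87.2 CPM against 262 to 619 CPM, and both DETC values lay below all the others. Icos, a CD28 relative from the list of αβ T cell markers, was at 199 and 105 CPM in DETC and at 1555 and 1706 CPM in CD8 T cells, a log2 fold change of -3.39 between them (adjusted p = 9.65e-08, edgeR). Against NK cells, where Icos was at 62.7 and 30.7 CPM, DETC were higher.

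Of 16 genes of cytotoxicity, 11 were tested, of which 5 were higher, 3 lower and 3 not called (median 0.27), beside 21.7% and 16.7% of all genes higher and lower. With only the gate cells without Trdv4, the lower calls of Gzmb and Fasl were lost (log2 fold changes of 0.0016 and -0.76 in place of -1.53 and -1.11). Fasl was also not called at 1000 UMIs per cell (-0.66), and DESeq2 did not call the higher gene Serpinb9 (0.91, adjusted p = 0.0612). Prf1, the pore-forming protein perforin, was at 259 and 264 CPM in DETC, 36.7 and 24.98 in CD8 T cells and 387 and 372 in NK cells. It was 2.67 ± 0.17 above the mean of 6 and 3.07 above CD8 T cells, and the difference from NK cells, -0.43, was not called (adjusted p = 0.164, edgeR). Ctla2a, an inhibitor of cathepsin-like proteases, was at 4610 and 4596 CPM, 2.59 ± 0.13 above the mean of 6. Among the tested granzyme genes, Gzmb was at 66.9 and 21.7 CPM against 980 and 667 in CD8 T cells, a log2 fold change of -4.28, and a UMI of it was seen in 11.4% and 6.29% of DETC. Gzma, the other main granzyme of NK cells, was at 20.1 and 0 CPM in DETC and at 1188 and 611 CPM in NK cells. Gzmc was at 214 and 142 CPM in DETC and was not called against the mean of 6 (-0.93) or CD8 T cells (-0.85), and it was lower than in NK cells (-2.90). Perforin was therefore above CD8 T cells, and Gzmb below both CD8 T and NK cells.

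Of 20 NK-type receptor genes, 19 were tested, and 9 were higher than the mean of 6, 2 lower and 8 not called (median 0.69), beside 21.7% and 16.7% of all genes. Of these calls, DESeq2 did not make those of Klrk1 and Fcgr3, the latter also lost without the MHC II-high cells and with the further filters of the study, edgeR without the replicate block not that of Cd160, and without control skin replicate 1 the log2 fold change of Klrg1 turned from -1.64 to 0.0073. Against NK cells 2 were higher, 13 lower and 4 not called (median -1.94), beside 15.1% and 12.5% of all genes. Klrd1, the CD94 chain that pairs with NKG2 proteins, was at 204 and 203 CPM against 262 and 300 in NK cells, a difference that was not called (-0.36, adjusted p = 0.14, edgeR). Klrb1b, an inhibitory NKR-P1 receptor, was at 166 and 183 CPM, and Cd244, a SLAM family receptor, at 205 and 202, with log2 fold changes of 3.03 ± 0.17 and 2.81 ± 0.20 against the mean of 6. Klra5 was at 0 in CD8, CD4 and NK cells and was present in 12.9% and 14.9% of DETC. Among the other Ly49 genes, Klra7 was at 10.4 and 8.11 CPM in DETC, Klra8 at 0.623 and 0.412 CPM against 207 and 198 in NK cells and Klra4 at 0.623 and 0.137 CPM against 158 and 164, although DESeq2 did not call Klra4 (adjusted p = 0.146). Cd226, an activating receptor for nectin-like ligands, was at 20.5 and 10.6 CPM, 2.56 below the mean of 6. DETC thus held part of the NK-type set, with Klrd1 and Klrb1b and little of Klra8 and Klra4.

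Of 21 genes of epidermal residency, 20 were tested, of which 6 were higher, 5 lower and 9 not called (median -0.24). Cd7 was at 1002 and 856 CPM against 13.5 to 602 CPM in the other sums. Ahr, a receptor for dietary and microbial ligands that skin γδ T cells need, was at 310 and 275 CPM, 2.08 ± 0.12 above the mean of 6. Rgs1, a regulator of G protein signaling, was at 3872 and 3270 CPM (1.61 ± 0.10). Cdh1, the adhesion molecule E-cadherin, was at 101 and 92.1 CPM (1.5 ± 0.29), beside 102 and 63.7 CPM in the IL-17 gate. Itgae, the integrin that binds E-cadherin, was at 382 and 328 CPM and was not called against the mean of 6 (0.15) or CD8 T cells, which had 400 and 400 CPM, and it was 1.33 above NK cells. Cd69 was also not called, at 121 and 112 CPM. Among the lower genes were Ccr8 (17.0 and 4.12 CPM), Ccr10 (2.02 and 1.51 CPM) and Cd101 (43.1 and 27.2 CPM). Another, Itga1 (-1.04), was not called by DESeq2 (adjusted p = 0.0543) or with at least 4 Trdc UMIs. Its log2 fold change turned to 0.29 without control skin replicate 1. The shares of the list called higher and lower were close to those of all genes tested, while single members such as Cd7 and Ahr lay above all 12 other sums.

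Genes of recirculation were lower than the mean of 6 where they were called. Of 14 tested, 10 were lower than the mean of 6 and the other 4, among them Cx3cr1, Tcf7 and Il6ra, were not called, with a median of -0.91, beside 16.7% of all genes lower. DESeq2 kept 6 of the 10 calls and lost those of Klf2, Klf3, Itga4 and Itgal, and Itga4 turned to 0.092 at 1000 UMIs per cell and to 0.71 without control skin replicate 1. S1pr1, the receptor for lymph-borne sphingosine phosphate, was at 6.38 and 1.51 CPM in DETC and 53.6 and 57.5 in CD8 T cells, a log2 fold change of -3.77 between them. Its relative S1pr4 was at 9.18 and 6.60 CPM, below all 12 other sums. Lef1, a transcription factor of naive T cells, was at 3.58 and 2.75 CPM and 2.88 lower than the mean of 6. Klf2, which drives S1pr1, was at 26.8 and 30.2 CPM (-0.89 ± 0.29), and Satb1 at 60.4 and 43.3 CPM (-1.97 ± 0.18). Against CD8 T cells 11 of the 14 were lower (median -1.71), beside 13.7% of all genes. Set beside NK cells, 1 was higher, 8 lower and 5 not called (median -1.40), where 15.1% and 12.5% of all genes were higher and lower. In the comparison with the IL-17 gate, 4 were lower and 10 not called (median -0.0076), beside 5.41% of all genes lower.

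Among 27 growth factors and cytokines, 17 were tested, with 3 higher, 3 lower and 11 not called (median 0.28), shares near the 21.7% and 16.7% of all genes. Areg, the epidermal growth factor receptor ligand amphiregulin (chr5:91139599-91148432), was at 1444 and 1273 CPM in DETC. The next levels were 921 and 802 CPM in the IL-17 gate, 904 and 442 in regulatory T cells and 634 and 561 in ILC2, with 29.5 and 20.0 in CD8 T cells. The log2 fold change was 2.72 ± 0.14 against the mean of 6 (adjusted p = 2.73e-09, edgeR) and 5.81 against CD8 T cells, and it missed the threshold against the IL-17 gate (0.68, adjusted p = 0.0551, edgeR). Il13, a type 2 cytokine, was at 43.4 and 33.0 CPM, and Il2, whose call was lost with DESeq2 and without the replicate block (adjusted p = 0.116 and 0.0768), at 28.3 and 31.1. Ifng was at 6.69 and 5.36 CPM against 165 and 94.9 in CD8 T cells and 245 and 106 in NK cells, with a log2 fold change of -2.53 ± 0.54 against the mean of 6. That last call was lost without the MHC II-high cells (-1.53), with the further cell filters of the study (-1.55) and at 1000 UMIs per cell (-2.52). Ltb and Tnfsf14, which encode lymphotoxin β and LIGHT, were the other lower genes, at -1.51 and -2.49. Fgf7, Fgf10, Fgf9, Igf1, Hbegf, Ereg, Kitl, Il22, Csf1 and Lif did not pass the filter on low counts.

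Of 27 cytokine receptor genes, 25 were tested, of which 5 were higher, 8 lower and 12 not called (median -0.10), beside 21.7% and 16.7% of all genes higher and lower. Il12rb2, the signaling subunit of the IL-12 receptor, was at 1294 and 1437 CPM in DETC, 623 and 706 in the IL-17 gate, 370 and 272 in CD8 T cells and 436 and 345 in NK cells. Its log2 fold change was 3.10 ± 0.21 against the mean of 6 and 1.93 against NK cells. Tgfbr2 was at 638 and 644 CPM (1.08 ± 0.14), Ifngr2 at 151 and 161 (2.35 ± 0.22), and Il2rb, the β chain shared by the IL-2 and IL-15 receptors, at 1251 and 1257 CPM (0.88 ± 0.09). Il2rb in NK cells was at 1327 and 1277 CPM. Il18r1 and Il18rap, the 2 chains of the IL-18 receptor, were at 77.5 and 52.5 CPM and at 50.3 and 39.3 CPM, below all other sums, with log2 fold changes of -2.61 and -2.69. Il2ra was at 48.9 and 74.1 CPM, and Il21r at 45.1 and 20.5. Il12rb1, the other chain of the IL-12 receptor, did not pass the filter on low counts.

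Of 18 chemokine and chemokine receptor genes, 14 were tested, and 4 were higher, 5 lower and 5 not called (median -0.72), beside 21.7% and 16.7% of all genes higher and lower. DESeq2 did not call 4 of these 9, Ccl4, Ccl5, Ccl6 and Ccl9, and Ccl5 was also not called without the replicate block (adjusted p = 0.131, edgeR). Xcl1, the chemokine of cross-presenting dendritic cells, was at 1691 and 1184 CPM, and at 4531 and 1816 CPM in NK cells, where the difference of -0.98 was not called (adjusted p = 0.063, edgeR). Ccl5 was at 114 and 51.3 CPM against 1954 and 1119 in CD8 T cells. Ccr2 and Cxcr4 were at 41.4 and 31.8 CPM and at 30.4 and 20.5 CPM, below all 12 other sums. Cxcl2, a neutrophil chemokine of myeloid cells, was at 211 and 305 CPM and was called higher, but it was at 126 and 95.6 CPM without the MHC II-high cells, and that call was lost.

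Of 34 listed transcription factors of effector and resident lymphocytes, 30 were tested, with 8 higher, 13 lower and 9 not called (median -0.70), beside 21.7% and 16.7% of all genes higher and lower. DESeq2 did not make the lower calls of Ikzf2 and Irf8 (adjusted p = 0.116 and 0.156). That of Ikzf2 was also lost without the replicate block (adjusted p = 0.0873, edgeR), and those of Irf8 and Batf at 1000 UMIs per cell. Runx3, which governs cytotoxic and epidermal T cells, was at 1009 and 1061 CPM, above all 12 other sums (1.37 ± 0.11), whereas its relative Runx1 was at 204 and 147 CPM, below all of them (-2.39 ± 0.18). A like contrast was seen in the Ikaros family, with Ikzf1 at 691 and 698 CPM (0.94 ± 0.12) above and Ikzf3 below, while Ikzf2 was lower by a call that was not stable (-0.56). Tox, a factor of thymic development and exhaustion, was at 1560 and 1616 CPM in DETC, 109 and 212 in CD8 T cells and 1949 and 2406 in ILC2. Tbx21, which encodes T-bet, was at 33.5 and 23.4 CPM against 293 and 235 in CD8 T cells and 411 and 611 in NK cells. Maf and Bhlhe40 were also lower than the mean of 6, at -1.66 and -2.10.

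Of 16 inhibitory receptor genes, 14 were tested, with 5 higher, 5 lower and 4 not called (median -0.02), beside 21.7% and 16.7% of all genes higher and lower. Among the higher ones, Entpd1, the ectoenzyme CD39, turned from 0.67 to -0.68 without the MHC II-high cells. Havcr2, which encodes TIM-3, was at 310 and 283 CPM against 5.45 to 246 CPM in the other sums, and it was 5.69 above NK cells on the log2 scale. Cd96, a receptor for nectin-like ligands, was at 194 and 180 CPM (2.02 ± 0.21), and Lag3 at 18.5 and 26.7 CPM (4.01 ± 0.51). Pdcd1, described above, and Ctla4 were lower, the latter at 40.9 and 51.8 CPM against 2337 and 3283 in regulatory T cells. Nt5e, the ectoenzyme CD73, was at 16.8 and 14.0 CPM and below all other sums. The checkpoint genes therefore did not move together, with Havcr2 and Lag3 higher and Pdcd1 and Ctla4 lower.

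**Figure D5:**
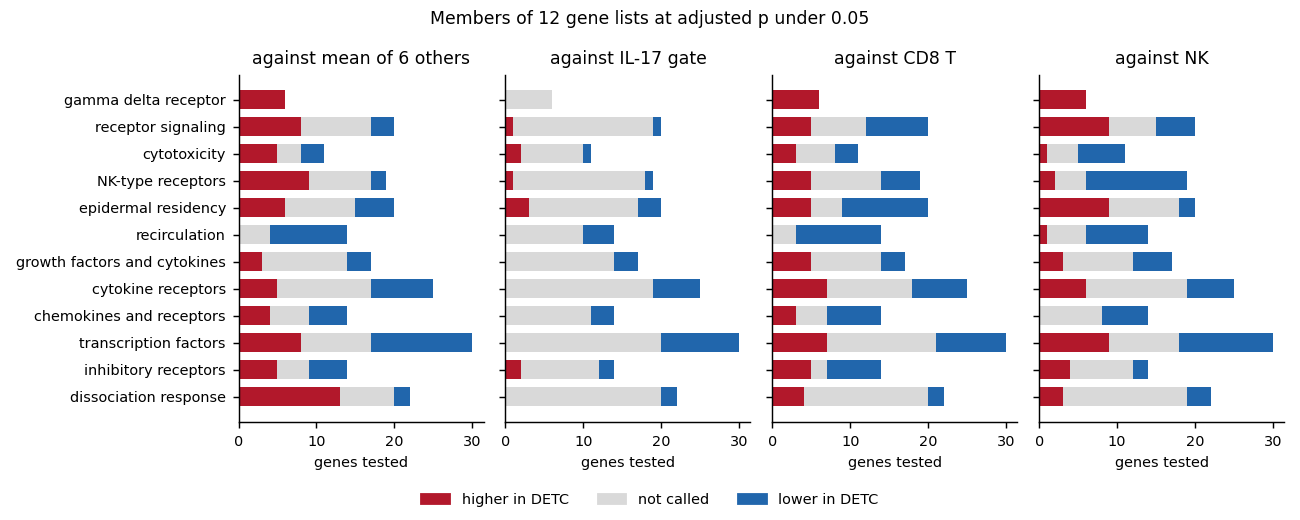
Number of tested genes called higher in DETC, called lower or not called in 12 gene lists for each of 4 comparisons (mean of 6 populations, IL-17 gate, CD8 T cells, NK cells). Recirculation genes show no higher call against the mean of 6, the IL-17 gate or CD8 T cells, and most NK-type receptor genes are lower than in NK cells.

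Of 22 genes known from the response of cells to tissue digestion, all tested, 13 were higher than the mean of 6, 2 lower and 7 not called (median 0.52), beside 21.7% and 16.7% of all genes higher and lower, with Fos at 905 and 692 CPM (2.13 ± 0.21), Fosb at 445 and 450 CPM (2.37 ± 0.19) and the heat shock gene Hspa1b at 757 and 397 CPM (1.21 ± 0.37). DESeq2 did not call Hspa1b and Ier3 (adjusted p = 0.166 and 0.103). Without the replicate block, edgeR did not call Hspa1b, Jund and Hsp90aa1 (adjusted p = 0.0698, 0.0743 and 0.151). The call of Ppp1r15a was lost at 1000 UMIs per cell, and that of Hsp90aa1 also without Trdv4 cells in the gate. Dusp2 and Nfkbia were lower. Against the IL-17 gate, CD8 T cells and NK cells, the higher and lower counts were 0 and 2, 4 and 2, and 3 and 3, beside 2.36% and 5.41%, 15.8% and 13.7%, and 15.1% and 12.5% of all genes. The part of the digestion in the levels of Fos, Egr1 and Nr4a2, which are also listed as transcription factors, was not tested.

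Markers of other cell types were measured in the same sums. The 10 Langerhans cell markers summed to 3415 and 4067 CPM in DETC, led by Cd74 at 1110 and 1250 CPM, and to 826 and 826 CPM without the MHC II-high cells. They summed to 37709 and 34953 CPM in Csf1r-high cells. The 10 macrophage markers summed to 446 and 839 CPM, led by Lyz2, and to 184 and 341 CPM without those cells. The 7 mast cell markers, led by Mcpt4, summed to 107 and 120 CPM, and to 22.9 and 35.8 CPM without them, with Mcpt1 at 0 in both libraries. In these 3 lists the counts higher against the mean of 6 were 6 of 9 tested, 7 of 10 and 2 of 3, beside 21.7% of all genes, and the other 7 genes were not called. Of these higher genes, DESeq2 did not call H2-Ab1, H2-Eb1, Ms4a7, Cma1 and Mcpt4. The calls of Cma1 and Mcpt4 were also lost with at least 16 Trdc UMIs. Without the MHC II-high cells, the log2 fold changes of H2-Aa and H2-Ab1 went from 1.77 and 1.36 to 0.27 and 0.07, and that of Mcpt4 from 2.66 to 0.84. Among the calls that could still be tested there, those of H2-Aa, H2-Ab1, Mcpt4 and Cma1 were lost, and none of a macrophage marker was. A gene that no longer passed the filter on low counts is not counted as lost.

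Keratinocyte markers summed to 146 and 209 CPM over 12 genes in DETC, with Krt1 at 0 in control skin 1. In comparison, CD8 T cells of control skin 1 had 1229 CPM and ILC2 of control skin 2 had 1135 CPM. Of 7 tested, 1 was higher than the mean of 6, 1 lower and 5 not called, beside 21.7% and 16.7% of all genes higher and lower. The higher one was Dsp, which encodes the desmosomal protein desmoplakin, at 96.5 and 101 CPM (3.45 ± 0.65). DESeq2 did not call it (3.07, adjusted p = 0.0794), and it made up most of the sum in control skin 1. The 4 melanocyte markers were all at 0 in control skin 1, and 3 of them in control skin 2. Of the 8 αβ T cell markers, Themis was higher (381 and 342 CPM), 3 were lower and 4 not called, beside the same 21.7% and 16.7% of all genes. Of 4 tested sex-linked genes, 2 were higher in DETC than the mean of 6, beside 21.7% of all genes. They were the Y-linked Ddx3y and Uty, at 0.58 and 1.35 on the log2 scale, and Ddx3y was not called at 1000 UMIs per cell (0.35).

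The comparison with the IL-17 gate was meant to set DETC beside other γδ T cells of the skin, but most of the gate cells carried Trdv4 and had Areg and Olfm3 as DETC do. The gate required IL-17 lineage genes and the selection of DETC nearly excluded them, so lower levels of genes expressed with them follow in part from the selections. Il17f was at 3.42 and 5.77 CPM in DETC and 445 and 319 in the gate, a log2 fold change of -6.33 ± 0.36, and Ccr6, Il1r1 and Zbtb16, which encodes PLZF, were at -3.72, -3.74 and -3.23. The 5 genes that the rule named as lower were Kcnk1, Ppp1r14c, Sema6a, 5830411N06Rik and Pde5a. Of these, Ppp1r14c was at 0 and 0.550 CPM in DETC against 89.0 and 96.5 CPM, and 5830411N06Rik, a scavenger receptor gene related to Cd163l1, at 1.56 and 0.825 CPM against 145 and 253. Of the transcription factors 10 of 30 were lower and the other 20 not called (median -0.25), beside 5.41% of all genes lower.

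The genes named as higher against the IL-17 gate included Pdpn, Chsy3, Apobec1 and Thbs1, each seen in at most 8.04% of DETC. Pdpn was at 3.89 and 14.0 CPM against 0 in the gate, and at 0.889 and 5.21 CPM without the MHC II-high cells. Thbs1, which encodes the matrix protein thrombospondin 1, was at 17.9 and 51.6 CPM and at 10.8 and 32.7 CPM without them. Without the replicate block, Pdpn, Chsy3 and Thbs1 were not called (adjusted p = 0.0726, 0.0751 and 0.118, edgeR). These 4 genes were present in Csf1r-high cells at 38.1 to 191 CPM. Ctla2a was 1.00 higher than in the gate, Prf1 0.87, Fcer1g 0.79, Klrd1 0.71 and Ahr 0.66.

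Against only the gate cells without Trdv4, a comparison added after the data were seen, 1010 genes were higher and 735 lower of 6790 tested. Areg was then 2.60 ± 0.39 higher (124 and 318 CPM in those cells), Il12rb2 2.72 ± 0.40, Cd7 2.93 ± 0.30, Prf1 3.39 ± 0.34 and Runx3 1.61 ± 0.20. Icos had a log2 fold change of -2.69 and Runx1 of -2.68. The calls shared by both fits with the same sign numbered 609. Areg, Il12rb2 and Runx3 were among the genes called only without the Trdv4 cells in the gate, and a difference between the 2 fits was not tested.

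The comparison with CD8 T cells set DETC beside the αβ T cells with cytotoxic genes. The genes named as higher were Gm43434, Olfm3, Mylk, Bend7 and Samd13. Gm43434 was at 243 and 184 CPM, but it lies on the minus strand at chr14:54128298-54146287 and overlaps Trdc, by which the cells were chosen, so its reads are uncertain. Mylk, the myosin light chain kinase, was at 73.6 and 86.6 CPM in DETC and 0 in CD8 T cells. The genes named as lower were Ppp1r14c, Gm44174, Ccl1, Gm8369 and Smyd1, of which Gm44174 and Smyd1 lie beside Cd8a and Cd8b1 on chromosome 6, genes by which the CD8 T cells were chosen. Gm8369 was at 4.05 and 0.825 CPM in DETC and 90.3 and 102 in CD8 T cells. Of the residency genes 5 were higher than in CD8 T cells, 11 lower and 4 not called (median -0.71), beside 15.8% and 13.7% of all genes higher and lower, and Gpr55, a lipid receptor of intraepithelial lymphocytes, was 2.06 lower.

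The comparison with NK cells set DETC beside innate cytotoxic lymphocytes. The genes named as higher were Enox1, Olfm3, Scin, Scn8a and Nrip3, all at 0 in NK cells. Enox1 was at 172 and 248 CPM in DETC. Scin, an actin-severing protein, was at 157 and 157 CPM, and at 132 and 128 CPM in Csf1r-high cells. The genes named as lower were Klra4, Klra8, Fam184a, Serpine2 and Car2, and Car2, a carbonic anhydrase, was at 0.623 and 3.02 CPM against 428 and 399. Of 20 residency genes 9 were higher than in NK cells, 2 lower and 9 not called (median 1.03), and of 11 cytotoxicity genes 1 was higher, 6 lower and 4 not called (median -0.78), beside 15.1% and 12.5% of all genes higher and lower. Tyrobp, the adaptor DAP12, was at 94.95 and 110 CPM in DETC and 1264 and 1058 in NK cells, while Fcer1g did not pass the test between them.

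Levels also varied from cell to cell within DETC. When 488 and 570 cells were thinned to 3000 UMIs, the 10 genes with the highest variance over mean (by the lower of the 2 libraries) were Gm42418, Cd74, Hspa1b, H2-Ab1, H2-Eb1, H2-Aa, Fth1, Hspa1a, Areg and Dnajb1. The 4 MHC class II genes follow the small group above, and Gm42418 overlaps ribosomal RNA. Areg had a variance over mean of 15.8 and 9.99. Without thinning, a UMI of Areg was present in 69.2% and 78.3% of DETC. In another draw of cells thinned to 3000 UMIs, it was at 0 UMIs in 43.9% and 36.3% of them, and the top 10% of cells held 55.7% and 48.0% of its UMIs, with up to 76 and 49 UMIs in a cell. In the same draw the top 10% held 43.7% and 41.0% for Xcl1, 27.5% and 29.0% for Trdv4 and 22.5% and 22.2% for Il2rb. For Hspa1b the top 10% of these thinned cells held 73.5% and 83.6%. At equal depth Areg and Hspa1b were thus spread more unevenly than Trdv4 and Il2rb.

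Heat shock genes were correlated across cells, and Areg showed little correlation with the genes compared. Over the thinned cells, Spearman's correlation of Hspa1a with Hspa1b was 0.62 and 0.52, and that of Hspa1b with Dnajb1 0.46 and 0.34. Areg had correlations of 0.02 and -0.03 with Fos, 0.03 and 0.03 with Xcl1, 0.07 and 0.08 with Fosb and -0.12 and -0.09 with Hspa1b. These are descriptions over cells that share a library, and sparse counts lower them. The DETC without a Trdv4 UMI, 10 and 14 cells, had a median of 11 and 14 Trdc UMIs, Cd7 at 802 and 697 CPM, Tcrg-C1 at 411 and 380 CPM and Olfm3 at 344 and 69.0 CPM.

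The few selected cells of the tumors differed in how well they matched the label, and with 6 and 14 cells no test was made. In skin tumor 2, Trdv4 was present in 13 of 14 cells at 356 CPM (exact Poisson 95% interval 266 to 467), Tcrg-C1 in 14 of 14 and Cd7 in 13 of 14. Olfm3 was at 185 CPM (122 to 269), Areg at 431 (331 to 552) and Il12rb2 at 1567. Cd7 was at 383 CPM (289 to 498) and Prf1 at 109, and both, like Trdv4 and Areg, were below their levels in the control DETC. No UMI of Klra5 or Tcrg-V5 was seen. Gzmb also had no UMI, which allows up to 20.5 CPM by 3 counts. In skin tumor 1, Trdv4 was present in 1 of 6 cells at 124 CPM (56.7 to 236), Cd7 in 4 of 6 and Tcrg-C1 in 3 of 6. Ccl5 was at 2013 CPM (1699 to 2367) and Gzmb at 427 (290 to 607) there, and Olfm3 had no UMI, which allows up to 41.4 CPM. The 6 cells of skin tumor 1 therefore went against the label and are named here only by the selection, whereas most cells of skin tumor 2 carried Trdv4, Tcrg-C1 and Cd7.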

How the data were processed

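The deposited UMI counts per gene and cell were made by the authors with Cell Ranger 7.1.0 (per the labels; the file headers name 7.0.1) on mm10. Of 14795 deposited cells, 13124 had at least 1000 UMIs and at most 15% mitochondrial UMIs. Cells were selected by raw UMIs, and counts were summed per population and library, each sum over at least 10 cells. Sums of the 2 control skins were fitted with edgeR 4.0.16 (R 4.3.3, TMM scaling, filterByExpr, quasi-likelihood test, Benjamini-Hochberg adjustment) with the library as a block, since all populations of a library come from 1 skin. The deviations of populations of 1 library from their means correlated at -0.099 to 0.225 (median 0.088). Doublets were scored but not removed in the main results. Genes named are the 12 furthest in each direction among called genes whose 2 DETC sums lie beyond all others, 5 per direction and pairwise comparison, list members and the 10 most variable genes; genes of the selections were left out, and some items are not reported here. The members and lists were chosen with earlier results of these data known. Scripts were tested on simulated data. CPM values use all UMIs of a sum. Of 31053 gene identifiers, 30934 were matched in GENCODE vM21. DESeq2 1.42.0, scipy 1.17.1 and scanpy 1.11.5 were used for alternatives, exact tests and doublet scores. Sequencing depth per library bounds rare genes: a count of 0 was read as up to 3 counts, and intervals are 95%.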

Additional observations from a re-analysis of the deposited data

How the results depend on the processing

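With 1000 UMIs per cell, 638 genes were higher and 573 lower against the mean of 6, 235 lower against the IL-17 gate, 494 and 482 against CD8 T cells and 316 and 302 against NK cells; fewer UMIs were tested there. The genes higher against the IL-17 gate numbered 481 with no filter on low counts, 114 without the replicate block and, in alternatives chosen after seeing the data, 377 without MHC II-high cells and 1010 without Trdv4 cells in the gate, where 735 were lower. Without the replicate block, 1803 and 1393 genes were called against the mean of 6. DESeq2 called 1677 and 1131. The mean DETC share of control skins was 13.2% with at least 16 Trdc UMIs, and the tumor shares were then 0.0208% and 0.299%. Leaving out 1 replicate gave shares of 15.7 to 17.9% in control skins and 0.125 to 0.698% in tumors. Of 152 list calls against the mean of 6, 128 were kept by DESeq2, 142 without the block, 137 of 148 without MHC II-high cells, 133 of 146 without Trdv4 cells in the gate and 95 of 110 at 1000 UMIs. These log2 fold changes reversed: Itga4 to 0.092 at 1000 UMIs, Gzmb to 0.0016 without Trdv4 cells in the gate, Cma1 to -0.13 and Entpd1 to -0.68 without MHC II-high cells, and, without control skin replicate 1, Ccl5 to 0.47, Itga1 to 0.29, Itga4 to 0.71 and Klrg1 to 0.0073. The cause was not tested. Fits without 1 control skin have no residual degrees of freedom and give no test. The 2 libraries per group and populations of 21 to 182 cells limit low genes.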
